A study of Mus musculus with 24 samples.

Results

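The genes described here encode 10 subunits that several histone H3 lysine 4 (H3-K4) methyltransferase complexes share or that join some of them: Wdr5, Ash2l, Rbbp5, Dpy30, Kdm6a, Ncoa6, Paxip1, Men1, Cxxc1 and Hcfc1. They were taken by gene symbol from a table of 39253 genes, and each of the 10 was found once and was among the 13901 genes tested. The samples were 24 cultures of Neuro2A cells, a wild-type mouse neuroblastoma line, in 8 groups of 3 independent biological replicates. For each of 3 RNA-targeting effectors, a group was transfected with plasmid encoding the effector (driven by the CAG promoter) and a crRNA against mouse ataxin-2 (mATXN2), and another with the effector and a non-targeted (NTG) crRNA. The effectors were RfxCas13d, its high-fidelity variant HiFi-RfxCas13d and DiCas7-11, and transfected cells were harvested at 48 hr. The remaining groups were cells left untransfected, labelled as the negative control, and cells that received an ataxin-2 antisense oligonucleotide (ASO), the positive control. The NTG arms and the untransfected cells therefore served as the controls, and no group with a control oligonucleotide was analysed here. The transfection was transient, so each culture also held whatever cells took up no plasmid. Columns of the deposited table name the control arm EV where the sample labels say NTG, so the content of that arm is in doubt, and it is called NTG here after the labels. The columns also give the guide of the mATXN2 arms another number than the labels do. Which mATXN2 crRNA these arms held is therefore in doubt too.

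Methylation of H3-K4 marks promoters and enhancers of active genes. The enzymes that place it in mammals are large proteins with a catalytic SET domain, Kmt2a, Kmt2b, Kmt2c, Kmt2d, Setd1a and Setd1b, each of which works on a common core of Wdr5, Rbbp5, Ash2l and Dpy30. The core stimulates the catalytic subunit, and further proteins mark out the kinds of complex. Men1 (menin) joins Kmt2a and Kmt2b, Cxxc1 (the CpG-binding protein Cfp1) joins Setd1a and Setd1b, and Kdm6a, Ncoa6 and Paxip1 join Kmt2c and Kmt2d. Hcfc1, host cell factor C1, is found with Kmt2a, Kmt2b, Setd1a and Setd1b.

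Totals per sample lay between 12665725 and 22504999 expected counts, with a median of 16478419. Levels are in CPM, which sets each library's counts to the same total, scaled by TMM except for the cell markers and the filter on low values. Of 15 neuroblast markers 14 passed that filter, with a summed level of 1790 to 1890 CPM. By contrast, 5 leukocyte or microglial markers summed to 0.374 CPM at most and 3 astrocyte markers to 0.576 CPM. Fibroblast and endothelial markers summed to 5.17 to 8.45 and 5.82 to 10 CPM. Atxn2, the targeted transcript, had log2 fold changes with the mATXN2 crRNA of -0.10 for RfxCas13d (adjusted p = 0.178), -0.23 for HiFi-RfxCas13d (adjusted p = 0.00157) and -0.20 for DiCas7-11 (adjusted p = 0.00557), and of -1.25 with the ASO (adjusted p = 1.65e-19). The 3 DiCas7-11 NTG libraries differed more among themselves than those of other groups (chi-square per gene 3.47 to 5.91 between pairs, against 1.67 to 2.63). Leaving out replicate 1 of that group moved the genes called for mATXN2 against NTG with DiCas7-11 from 131 to 605, and leaving out replicate 2 to 16. In long genes a pair of libraries stood apart from the others of their groups. Kmt2d was at 138.7 CPM in untransfected replicate 1 against 98.7 and 110.5 CPM, and at 135.4 CPM in DiCas7-11 NTG replicate 3 against 108.5 and 110.8 CPM.

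The 10 shared subunits were all expressed, at levels that differed widely between genes and little between groups. Per kilobase of transcript, Ash2l had the highest mean over the 24 samples at 86.6 CPM, followed by Dpy30 at 68.2 CPM and Wdr5 at 48.0 CPM. The sample ranges of these core genes did not overlap. Hcfc1 (28.6 CPM per kilobase) and the core subunit Rbbp5 (25.7 CPM per kilobase) came next and overlapped each other. Men1 at 17.1, Ncoa6 at 16.7, Cxxc1 at 16.0 and Paxip1 at 13.7 CPM per kilobase formed a further run of neighbours with overlapping ranges. Kdm6a, the H3-K27 demethylase of the Kmt2c and Kmt2d complexes, was lowest at 6.49 CPM per kilobase. On the same scale the catalytic subunits lay between 4.27 (Setd1b) and 14.1 CPM (Setd1a), so that 8 of the 10 shared subunits had a higher mean than all 6 of them, and Paxip1 and Kdm6a lay within their range. Across groups, the ratio of the highest to the lowest group mean was 1.05 for Kdm6a, 1.08 for Wdr5 and 1.26 for Hcfc1, compared with 1.79 for Kmt2d.

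**Figure D1:**
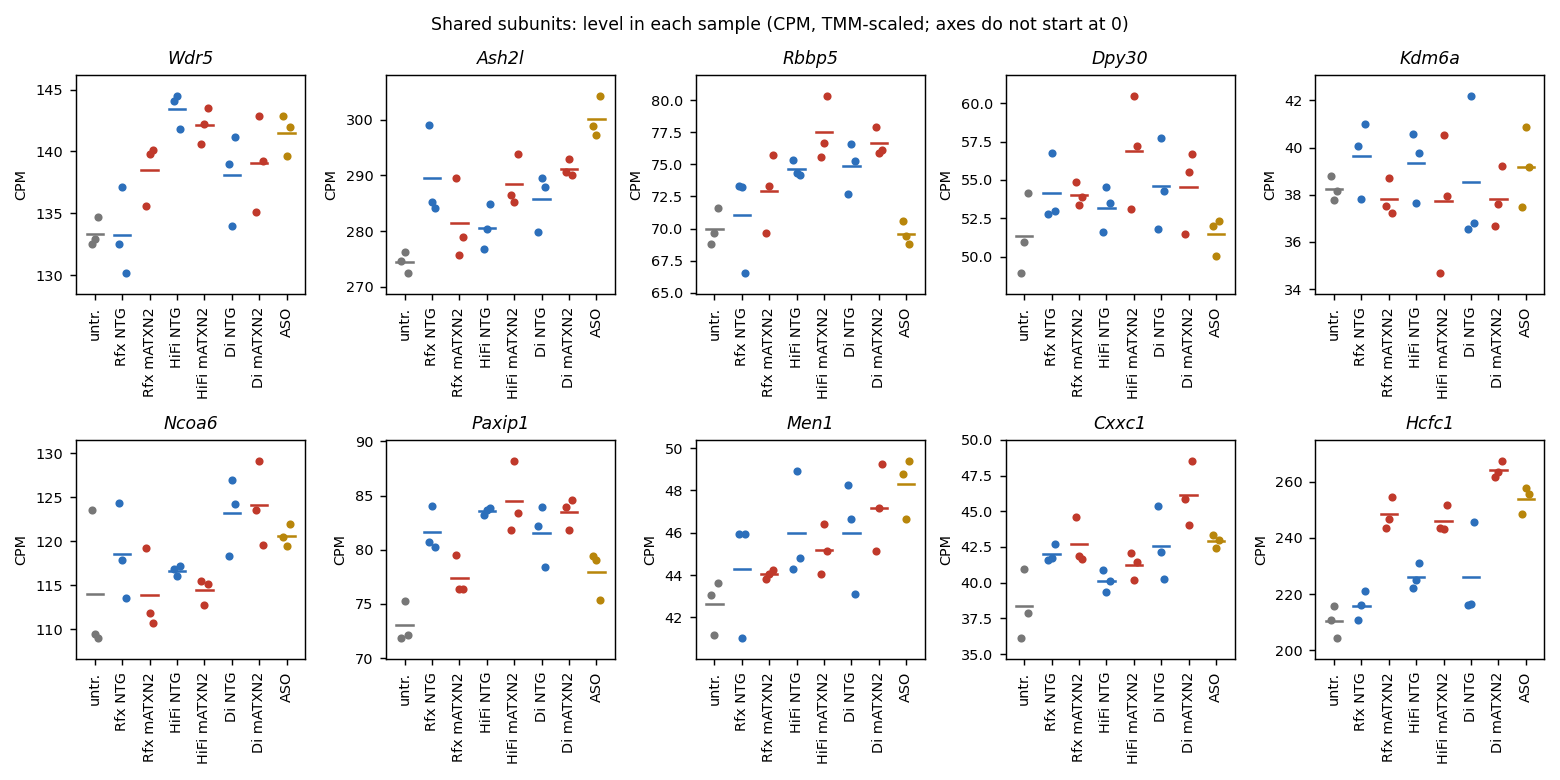
Level of each shared subunit in each of the 24 samples, in CPM after TMM scaling (vertical axes differ between genes and do not start at 0). Points are samples, lines are means of 3, grey is untransfected, blue NTG, red mATXN2 and ochre ASO, and Rfx, HiFi and Di stand for RfxCas13d, HiFi-RfxCas13d and DiCas7-11. Hcfc1 with mATXN2 lies above its NTG samples for each effector, and Paxip1 is lowest in untransfected cells, with a mean of 73.1 CPM.

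With the mATXN2 crRNA, the only shared subunit called was Hcfc1, a large chromatin adaptor that is cut into chains that stay bound to each other. It was called higher with RfxCas13d and with DiCas7-11 and on average over the 3 effectors, by 13.5% there. The other 9 genes, the core subunits among them, had averaged log2 changes between -0.05 (Kdm6a) and 0.06 (Cxxc1), and none passed the test. In single effectors, the number of members called higher was 1 of 10 with RfxCas13d (0.914% of all tested genes were called higher), 0 with HiFi-RfxCas13d (0.281%) and 1 with DiCas7-11 (0.554%). With HiFi-RfxCas13d edgeR gave 1 member an unadjusted p under 0.05, and DESeq2 and limma-trend also called 0. In the average over effectors 1 was called, against 2.95% of all genes called higher. Samples of both arms did not overlap for 2, 4 and 2 of the 10 members in the order of effectors above, compared with 20.2%, 13.2% and 14.5% of all genes. In bulk samples a change in which cells are present and a change of RNA per cell cannot be told apart.

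Hcfc1 (Entrez gene 15161) lies on chromosome X. RfxCas13d samples had 243.5, 246.9 and 254.7 CPM of Hcfc1 in the mATXN2 arm and 210.6, 216.1 and 221 CPM in the NTG arm. For HiFi-RfxCas13d the Hcfc1 samples stood at 243.5, 243.2 and 251.9 CPM against 222.1, 225 and 231 CPM. For DiCas7-11 they were at 261.7, 263.5 and 267.4 CPM against 216.1, 216.4 and 245.7 CPM. For each effector the lowest mATXN2 sample was above the highest NTG sample. The highest NTG value, that of DiCas7-11 replicate 3, belonged to a library that stood apart.

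The log2 fold change of Hcfc1 was 0.20 (standard error 0.035, adjusted p = 0.00226) for RfxCas13d, 0.12 (standard error 0.035, adjusted p = 0.183) for HiFi-RfxCas13d and 0.22 (standard error 0.035, adjusted p = 0.00142) for DiCas7-11 by edgeR's quasi-likelihood test. The mean over effectors was 0.18, with a 95% interval from 0.14 to 0.22 (adjusted p = 5.35e-07, n = 9 against 9). The difference between HiFi-RfxCas13d and DiCas7-11 in this response was -0.10, with a 95% interval from -0.20 to 0.00 (edgeR, adjusted p = 0.68), so the effectors were not shown to differ. With the 6 DiCas7-11 samples alone the change of Hcfc1 was 0.22 with an adjusted p of 0.0824, in a fit that called 1 gene of all against 131, and without NTG replicate 3 the call held. For HiFi-RfxCas13d the call was gained with adjustment over 10 comparisons together (adjusted p = 0.0139), without the filter on low counts (adjusted p = 0.0112) and with the 6 samples alone (adjusted p = 0.0302), settings in which the calls over all genes also went from 41 to 275, 201 and 105.

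The start of Hcfc1 is shown because it was the one member called with the crRNA. The window runs from 250 bases before to 50 bases after the annotated start in RefSeq's GRCm38.p6 (chrX:73966308-73966607, minus strand), an older build than the authors' GRCm39. Capitals mark 2 copies of AAGATGGCGGC, the letters of a YY1-type site, 1 of them before and 1 after the start, and between them 1 copy of the ETS-type letters CCGGAAG. These letters were chosen after the sequence was seen.

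Hcfc1: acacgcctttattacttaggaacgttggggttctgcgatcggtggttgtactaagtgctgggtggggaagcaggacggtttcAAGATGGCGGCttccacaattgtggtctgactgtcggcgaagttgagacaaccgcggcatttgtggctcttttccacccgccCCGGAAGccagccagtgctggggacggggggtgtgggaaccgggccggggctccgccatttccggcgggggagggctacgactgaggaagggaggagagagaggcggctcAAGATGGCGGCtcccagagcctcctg

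Searched on both strands, AAGATGGCGGC was held by 0.633% of 32851 promoter windows of 300 bases, and 2 or more copies by 0.0183%. CCGGAAG was held by 8.86% of the windows. The E-box CACGTG (7.15% of windows) was also searched and was not matched in the Hcfc1 window. GGGCGG, a GC box (35.7% of windows), was matched there once, on the opposite strand. That match was not marked, and its end overlaps the first base of CCGGAAG. Windows were found for 8 of the 10 shared subunits (13 windows, not for Ash2l and Cxxc1) and for 4 catalytic subunits, and among these AAGATGGCGGC was matched in that of Hcfc1 alone. A match is a run of letters and not a site shown to be bound.

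Intervals of the change averaged over effectors were narrow for the core subunits. Wdr5, the WD-repeat protein that docks the catalytic subunit, had an averaged log2 change of 0.02 (95% interval from -0.02 to 0.05), and Ash2l, which binds DNA and activates the enzyme with Rbbp5, one of 0.01 (from -0.02 to 0.04). For Rbbp5 it was 0.04 (from -0.00 to 0.09), and for Dpy30, a small protein that binds Ash2l, 0.03 (from -0.03 to 0.09). Single effectors were bounded less closely, and Dpy30 with HiFi-RfxCas13d was at 0.10 (from -0.00 to 0.20). Ash2l samples with the mATXN2 crRNA lay above all NTG samples for HiFi-RfxCas13d (285.3 to 293.8 against 276.7 to 284.8 CPM) and DiCas7-11 (290 to 292.9 against 279.9 to 289.5 CPM) but overlapped for RfxCas13d (275.7 to 289.5 against 284.2 to 299.1 CPM). The response of Ash2l with HiFi-RfxCas13d minus that with RfxCas13d was 0.08 (edgeR, adjusted p = 0.753).

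The subunits particular to the Kmt2c and Kmt2d complexes did not pass the test either. Kdm6a, on the X chromosome, had an averaged log2 change of -0.05 (95% interval from -0.12 to 0.02), the coactivator Ncoa6 one of -0.02 (from -0.07 to 0.02) and Paxip1, a BRCT-domain protein also active in the response to DNA damage, one of -0.01 (from -0.05 to 0.03). In HiFi-RfxCas13d samples Ncoa6 was at 115.5, 112.8 and 115.1 CPM with mATXN2, just below its 116.8, 116 and 117.2 CPM with NTG. Paxip1 was at 79.51, 76.4 and 76.4 CPM with RfxCas13d and the mATXN2 crRNA, below all 3 NTG samples (80.75, 84.03 and 80.22 CPM), whereas its groups overlapped with the other effectors. The log2 change with RfxCas13d was -0.08 (adjusted p = 0.362). Men1 had an averaged change of 0.00 (from -0.06 to 0.06). Cxxc1 had the largest of the 9, at 0.06 (from 0.00 to 0.12, edgeR adjusted p = 0.26). Its samples overlapped with each effector, and with DiCas7-11 they were at 45.89, 44.05 and 48.52 CPM against 45.39, 42.14 and 40.23 CPM. The responses of all 10 members to the crRNA were not shown to differ between effectors: edgeR called 0 of them, and 0 of all 13901 genes (0% in each of the 3 tests, with 855 to 1084 genes at an unadjusted p under 0.05).

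**Figure D2:**
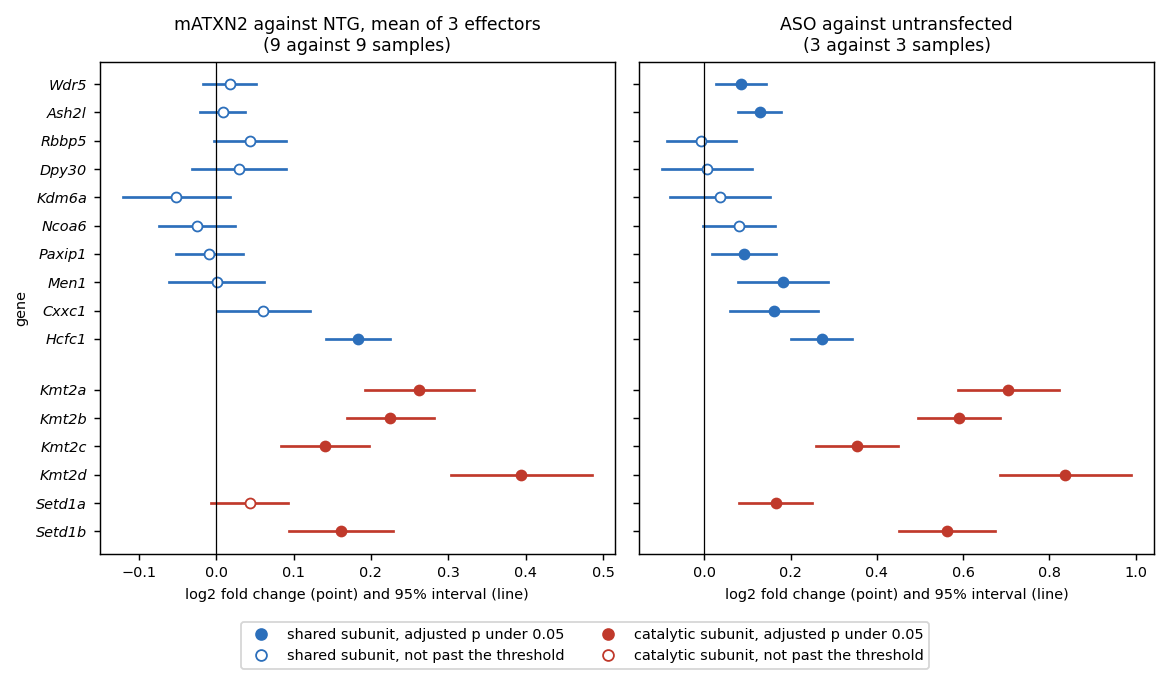
Log2 fold changes (horizontal axes, points) with 95% intervals (lines) of the 10 shared subunits (blue) and the 6 catalytic subunits (red), for mATXN2 against NTG averaged over effectors and for the ASO against untransfected cells. Filled points have an adjusted p under 0.05 by edgeR's test. In the first panel Hcfc1 at 0.18 is the only filled blue point and Setd1a at 0.04 the only open red one.

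The catalytic subunits gave higher values in the same fits. Their rise was known from earlier results of these libraries, so it is given for comparison and is not independent evidence. Their median log2 changes were 0.19, 0.19 and 0.20 (RfxCas13d, HiFi-RfxCas13d, DiCas7-11), against -0.01, 0.03 and 0.03 for the shared subunits and 0.00 for all tested genes with each effector. Averaged over effectors, 5 of the 6 catalytic subunits were called higher and Setd1a, with 0.04 (adjusted p = 0.355), was not. Kmt2d, the main H3-K4 methyltransferase of enhancers together with Kmt2c, changed most at 0.39 (adjusted p = 6.3e-07), and Kmt2a at 0.26, Kmt2b at 0.23, Setd1b at 0.16 and Kmt2c at 0.14 followed. The summed level of the 6 catalytic subunits relative to that of the 10 shared ones was 0.461 ± 0.0151 (SD, n = 3) with NTG and 0.525 ± 0.0137 with mATXN2 for RfxCas13d. HiFi-RfxCas13d samples gave 0.455 ± 0.00944 and 0.520 ± 0.0147, and DiCas7-11 samples 0.465 ± 0.0286 and 0.518 ± 0.0263 (SD, n = 3 each). The ratio was 0.474 ± 0.0347 in untransfected cells, where replicate 1 was at 0.514 and the others at 0.456 and 0.452.

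**Figure D3:**
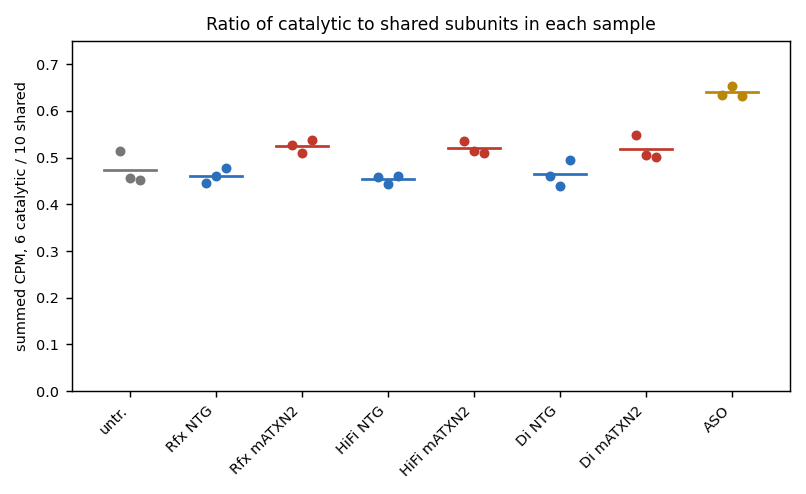
Summed CPM of the 6 catalytic subunits divided by that of the 10 shared subunits (vertical axis, from 0) in each sample of the 8 groups. Points are samples and lines means of 3. Samples with mATXN2 lie between 0.502 and 0.549, above the NTG samples of the same effector, and ASO samples between 0.632 and 0.653.

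For each of the 38 pairs of a catalytic subunit and a partner that the makeup of the complexes gives, the log2 ratio of both was taken in every sample and its mean compared between crRNAs. The catalytic subunits were known to rise in these libraries, so these ratios are given as a description with no test, and many pairs share a gene. The ratio was higher with mATXN2 for all 3 effectors in 31 of 38 pairs. Kmt2d stood higher relative to each of its 7 partners. Against Kdm6a the mean difference in log2 ratio was 0.45 (0.42, 0.49 and 0.43 for the 3 effectors), against Ncoa6 it was 0.42 and against Paxip1 0.41. Against Wdr5, Ash2l, Rbbp5 and Dpy30 that of Kmt2d was 0.38, 0.39, 0.36 and 0.37. Relative to Men1, Kmt2a differed by 0.26 and Kmt2b by 0.22.

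The averaged log2 change of Hcfc1, 0.18, lay within the range of the catalytic subunits (0.04 for Setd1a to 0.39 for Kmt2d). The mean differences in log2 ratio to Hcfc1 were 0.08 for Kmt2a, 0.04 for Kmt2b, -0.02 for Setd1b and -0.14 for Setd1a. Relative to Cxxc1, Setd1a differed by -0.02 and Setd1b by 0.10. Relative to the 4 core subunits Setd1a differed by 0.00 to 0.03.

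The coding sequence was 297 bases in Dpy30, 1002 in Wdr5, 1614 to 1980 in Rbbp5, Men1, Ash2l and Cxxc1, 3168 in Paxip1, 4272 in Kdm6a, 6207 in Ncoa6 and 6270 in Hcfc1, against 5148 (Setd1a) to 16764 (Kmt2d) in the catalytic subunits. Over all tested genes the median averaged log2 change with mATXN2 was 0.14 in the 140 genes of 8000 bases or more, 0.02 in the 754 of 4000 to 8000 bases, and between -0.01 and 0.01 in the shorter classes. Hcfc1, Ncoa6 and Kdm6a belong to the class of 4000 to 8000 bases, in which 15% of genes were called higher. Hcfc1 and Ncoa6, nearly equal in length, changed by 0.18 and -0.02.

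Across the 10 members the averaged change had a Pearson correlation of 0.09 with the logarithm of the coding length (Spearman -0.21), and of -0.60 without Hcfc1. It was 0.72 across the 6 catalytic subunits. These are correlations across genes of the same libraries, with n of 10, 9 and 6. After a correction of each library for its trend on coding length, the averaged change of Hcfc1 was 0.13 (edgeR, adjusted p = 2.98e-06), and that of Ncoa6 became -0.08 (adjusted p = 0.0469), so 2 members were called, in opposite directions. Kmt2d then changed by 0.21, Kmt2b by 0.14 and Kmt2a by 0.12, whereas Kmt2c was at -0.03 (adjusted p = 0.507). With the correction, the mean differences in log2 ratio fell to 0.27 for Kmt2d against Kdm6a and 0.29 against Ncoa6, and to 0.11 for Kmt2a against Men1. They turned in sign for Kmt2a against Hcfc1 (-0.01), for Setd1a against Wdr5, Ash2l and Rbbp5 (-0.04 to -0.01) and for Kmt2c against Wdr5, Ash2l, Rbbp5, Dpy30 and Paxip1 (-0.08 to -0.02). For Setd1a against Cxxc1 the value became -0.06, and for Setd1b against Cxxc1 0.04.

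**Figure D4:**
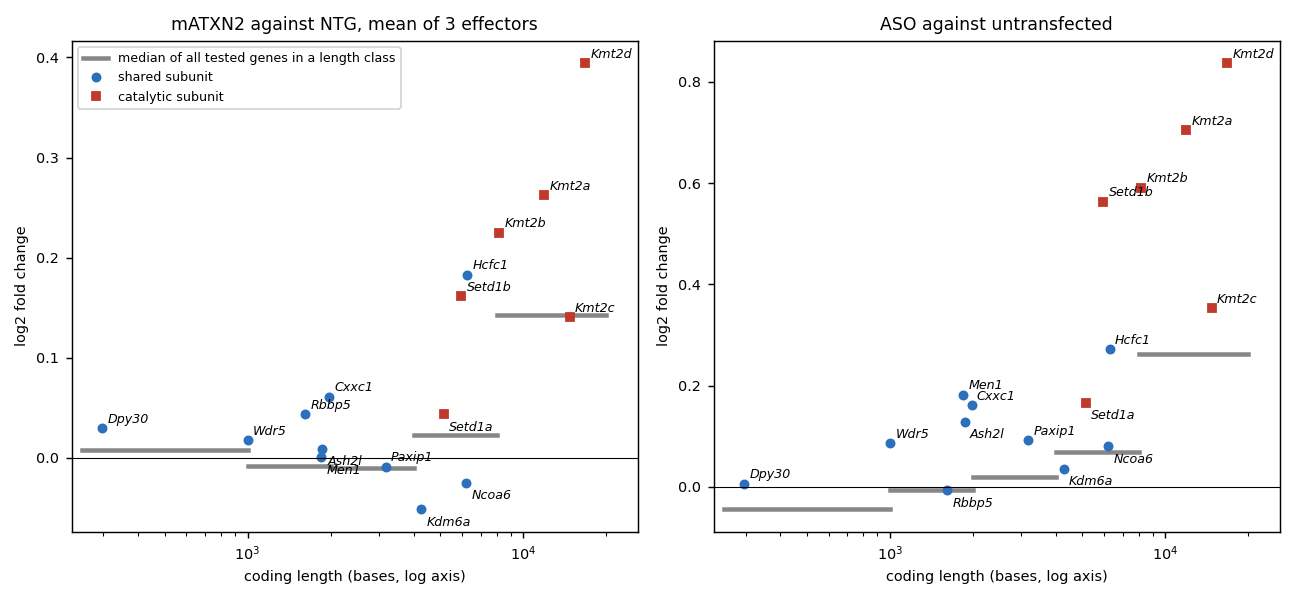
Log2 fold change (vertical axis) against coding length in bases (horizontal log axis) of shared subunits (circles) and catalytic subunits (squares). Grey bars are the medians of all tested genes in 5 length classes, the last drawn for genes of 8000 bases and over. In the first panel Ncoa6 and Kdm6a lie below the bar of their class (0.02) and Hcfc1 above it.

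NTG samples were compared with untransfected cells, from which they differed by the transfection itself, the effector and the content of the control arm, which cannot be told apart. Paxip1 rose with all 3 effectors, and the other members called were also higher. RfxCas13d NTG had 2 members called higher (5.6% of all genes were), HiFi-RfxCas13d NTG 3 (10.3%) and DiCas7-11 NTG 3 (11.1%). No member was called lower, where 5.66%, 10.6% and 10.8% of all genes were. All 3 NTG samples lay above all untransfected ones for 3, 6 and 4 members, compared with 13.9%, 17.6% and 15.5% of all genes. The 3 comparisons share the same untransfected samples, so their values are given side by side and do not count as repeats.

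Paxip1 (Entrez gene 55982, chromosome 5) was at 71.85, 75.27 and 72.15 CPM in untransfected cells. The NTG samples had 80.75, 84.03 and 80.22 CPM with RfxCas13d, 83.17, 83.64 and 83.9 CPM with HiFi-RfxCas13d, and 82.23, 83.92 and 78.41 CPM with DiCas7-11. All 9 NTG samples of Paxip1 thus lay above the 3 untransfected ones. The log2 fold changes of Paxip1 were 0.16 (standard error 0.038, edgeR adjusted p = 0.00581), 0.19 (0.037, adjusted p = 0.000433) and 0.16 (0.038, adjusted p = 0.00324). With the mATXN2 crRNA Paxip1 was at 76.4 to 79.51, 81.79 to 88.19 and 81.85 to 84.64 CPM with the same effectors, also above the untransfected range.

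The start of Paxip1 is given since this member was called in every NTG comparison (GRCm38.p6, chr5:27791501-27791800, minus strand). Capitals mark the palindrome GCGCATGCGC, the letters of an NRF1-type site, held by 0.971% of all windows on either strand and picked after the sequence was seen. No other window of a shared or catalytic subunit holds it.

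Paxip1: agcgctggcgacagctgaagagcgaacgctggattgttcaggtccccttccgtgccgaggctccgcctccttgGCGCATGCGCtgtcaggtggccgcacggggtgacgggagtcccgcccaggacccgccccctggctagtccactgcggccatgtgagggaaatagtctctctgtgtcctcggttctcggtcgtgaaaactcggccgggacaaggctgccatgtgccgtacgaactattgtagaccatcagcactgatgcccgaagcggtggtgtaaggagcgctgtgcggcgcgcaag

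The remaining calls against untransfected cells were smaller or less steady. Ash2l was at 284.2 to 299.1 CPM with RfxCas13d NTG and at 272.5 to 276.2 CPM in untransfected cells, a log2 change of 0.08 (edgeR, adjusted p = 0.0463). The call of Ash2l was lost without RfxCas13d NTG replicate 1 (adjusted p = 0.22) and without any of the untransfected replicates (adjusted p from 0.0792 to 0.107). Wdr5 was at 141.8 to 144.5 CPM with HiFi-RfxCas13d NTG against 132.5 to 134.7 CPM, a change of 0.11 (adjusted p = 0.00935). Hcfc1 changed by 0.10 with HiFi-RfxCas13d NTG (adjusted p = 0.0388) and by 0.10 with DiCas7-11 NTG (adjusted p = 0.0367), and without DiCas7-11 NTG replicate 3 the latter was 0.04 (adjusted p = 0.425). Without untransfected replicate 1 or 3 both calls of Hcfc1 were lost (adjusted p from 0.0747 to 0.151), and that with HiFi-RfxCas13d also without NTG replicate 2 (adjusted p = 0.0727) or 3 (adjusted p = 0.141). Cxxc1 changed by 0.15 with DiCas7-11 NTG (adjusted p = 0.0438) and was called neither by DESeq2 (adjusted p = 0.0781) nor with the 6 samples alone (adjusted p = 0.144), and the call was also lost without untransfected replicate 1 or 3 or NTG replicate 1 or 2 (adjusted p from 0.078 to 0.221). Ncoa6 stood at 118.3, 127 and 124.2 CPM with DiCas7-11 NTG and at 123.6, 109.5 and 109 CPM in untransfected cells, the first of these from the library that stood apart. Its change of 0.11 (adjusted p = 0.0576) became 0.18 without that library (adjusted p = 0.00355), and Ncoa6 was also called with all libraries kept under 6 other settings, RLE scaling, no filter, limma-trend, the replicate block (0.11, adjusted p = 0.0403) and the length correction with and without that block. Without NTG replicate 1 it was called as well (0.14, adjusted p = 0.0251). Among the catalytic subunits 1 was called in these comparisons, Setd1b with DiCas7-11 NTG (0.16, adjusted p = 0.049). After the correction for coding length Kmt2b was called too with each effector (0.15, 0.14 and 0.12, adjusted p = 0.0303, 0.0197 and 0.0496). In genes of 8000 coding bases or more the median change was -0.07, -0.06 and -0.01.

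The ASO samples were compared with the same untransfected cells. Called higher were 6 members, Wdr5, Ash2l, Paxip1, Men1, Cxxc1 and Hcfc1, and called lower 0, where 21% of all genes were called higher and 21.7% lower. The same 6 had every ASO sample above every untransfected one, as had 25.8% of all genes. All 6 catalytic subunits rose. The untransfected cells received no oligonucleotide, so the effects of lowering Atxn2 and of receiving an oligonucleotide cannot be told apart, and the same control samples stand behind the NTG comparisons.

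Hcfc1 had the highest change among the shared subunits before, but not after, the correction for coding length. Its ASO samples were at 248.6, 257.7 and 255.7 CPM and its untransfected samples at 210.7, 215.7 and 204.3 CPM, without overlap. The log2 change of Hcfc1 was 0.27 (standard error 0.035, edgeR adjusted p = 2.76e-07), and after the correction it was 0.17 (adjusted p = 1.07e-05), below 0.18 for Men1. Men1 was at 48.8, 46.67 and 49.39 CPM against 43.05, 41.17 and 43.64 CPM, a change of 0.18 (adjusted p = 0.00475). Cxxc1 changed by 0.16 (adjusted p = 0.00987; 0.0852 without untransfected replicate 1), Ash2l by 0.13 (adjusted p = 9.18e-05) and Wdr5 by 0.09 (adjusted p = 0.0149). Paxip1 changed by 0.09 (adjusted p = 0.0436), a call lost under 11 of 17 alternatives. Rbbp5 (-0.01), Dpy30 (0.01), Kdm6a (0.04) and Ncoa6 (0.08) did not pass, but Ncoa6 was called without untransfected replicate 1 (0.15, adjusted p = 0.00525). After the correction for coding length Dpy30 was called (0.14, adjusted p = 0.0211) and Paxip1 was not (0.07, adjusted p = 0.117).

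The catalytic subunits had a median ASO change of 0.58, from 0.17 for Setd1a to 0.70 for Kmt2a and 0.84 for Kmt2d. Kmt2d was at 207.1, 211.5 and 202.8 CPM with the ASO. The correction for coding length ended the calls of Kmt2c (0.06, adjusted p = 0.147) and Setd1a (0.09, adjusted p = 0.0555) and left Kmt2d at 0.52. The ratio of catalytic to shared subunits was 0.640 ± 0.0118 (SD, n = 3). The change in genes of 8000 coding bases or more had a median of 0.26, and that in genes of 4000 to 8000 bases one of 0.07. Across the 10 shared subunits the ASO change had a Pearson correlation of 0.46 with the logarithm of coding length (0.25 without Hcfc1), as a description.

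Over all 8 groups, 7 of the 10 members showed some difference by edgeR's test (50.3% of all tested genes did), and the exceptions were Dpy30 (adjusted p = 0.145), Kdm6a (adjusted p = 0.871) and Men1 (adjusted p = 0.0692). The call of Ncoa6 (adjusted p = 0.0431) was unsteady and was lost when any 1 of 15 of the 24 libraries was left out (adjusted p from 0.0506 to 0.0933). Men1 was called by the same test without HiFi-RfxCas13d NTG replicate 2 (adjusted p = 0.0488) or DiCas7-11 NTG replicate 3 (adjusted p = 0.0355). It was also called without DiCas7-11 mATXN2 replicate 1 (adjusted p = 0.0435), and Dpy30 without HiFi-RfxCas13d mATXN2 replicate 1 (adjusted p = 0.0495). Kdm6a was the most even, with group means from 37.7 to 39.6 CPM. Its autosomal paralog Kdm6b was called higher with mATXN2 on average (0.08, adjusted p = 0.0441).

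The members did not vary together as the catalytic subunits did. Over the 24 samples, the Pearson correlation of log2 CPM had a median of 0.20 over the 45 pairs of shared subunits (from -0.22 for Kdm6a with Hcfc1 to 0.60 for Rbbp5 with Paxip1) and of 0.87 over the 15 pairs of catalytic subunits. These points share libraries and groups. Hcfc1 was closer to all 6 catalytic subunits, from 0.62 (Setd1a) to 0.85 (Kmt2b), than to any other shared subunit. Of these subunits Cxxc1 was closest to its partner Setd1a (0.72), which ranked 16 among 10912 genes in likeness to Cxxc1. The core subunit Ash2l was closer to Kmt2b (0.67), Kmt2a, Setd1a, Setd1b and Kmt2d (0.61) than to any shared subunit (Ncoa6 nearest, 0.59). It was less close to Kmt2c (0.55). Among all genes with a mean of at least 50 counts, the most like Hcfc1 was Prpf8 (0.96), the large core protein of the spliceosome, then Prrc2a (0.95) and Srcap (0.93). The gene most like Ash2l was Setd2 (0.84), the H3-K36 methyltransferase, that most like Dpy30 was Pcna (0.78), and that most like Wdr5 was Wdr77 (0.76).

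Other genes of the pathway were counted from lists of further subunits, demethylases, other SET domain or H3-K4 enzymes and readers. Averaged over effectors, 410 of the 13901 tested genes were called higher (2.95%) and 312 lower, and these lists are short. Of 6 further subunits 1 was called, Hcfc2, a relative of Hcfc1, which fell by 0.10 on the log2 scale (adjusted p = 0.0214). Of 5 H3-K4 demethylases 1 was called higher, the X-linked Kdm5c (0.06, adjusted p = 0.024). Of 5 other enzymes, 1 was called lower, Kmt2e (-0.08, adjusted p = 0.0211), and of 10 readers of H3-K4 methylation, 1 was called higher, Bptf (0.08, adjusted p = 0.0119), the large subunit of the NURF remodelling complex. Within effectors Hcfc2 with RfxCas13d (-0.20, adjusted p = 0.026) was the only call in these lists.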

How the data were processed

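RNA-seq of 24 Neuro2A samples in 8 groups was analysed. The authors mapped reads to the mouse transcriptome (GRCm39) with Salmon 1.5.2 and summed them to genes with tximport (lengthScaledTPM); the deposited values are expected counts, not scaled for depth, which lay between 12665725 and 22504999 per sample.

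Counts were rounded. Genes reaching 0.5 CPM in 3 or more samples were scaled by TMM and tested with edgeR 4.0.16 (R 4.3.3; quasi-likelihood test, 1 coefficient per group, all 24 samples, Benjamini-Hochberg within each comparison, threshold 0.05). Alternatives were RLE scaling, other filters, limma 3.58.1 (trend, prior count 3), DESeq2 1.42.0, a replicate block, leaving out libraries, fewer samples, a joint adjustment and a lowess correction for coding length (span 0.3). Coding lengths, from GENCODE M21 (GRCm38), were matched by Entrez identifier for 87.3% of tested genes. Samples with the same replicate number correlated between -0.108 and 0.235 after group means were removed, and were not treated as pairs. Scripts were tested on simulated data. Members and gene lists were chosen with earlier results of these data known. All members, the catalytic subunits and Atxn2 are named, and other listed genes where called.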

Additional observations from a re-analysis of the deposited data

How the results depend on the processing

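Of the alternatives, none reversed a called member. Hcfc1 was called in the average over effectors under all 26 alternatives, with log2 changes from 0.13 to 0.21, in RfxCas13d under all 17 and in DiCas7-11 under 16 of 17. With HiFi-RfxCas13d, 1 member instead of 0 (Hcfc1) was called without the filter, with the adjustment over 10 comparisons by edgeR or by limma-trend, and with the 6 samples alone, which gave 0 instead of 1 for DiCas7-11. Among values called neither in the main fit nor in an alternative, 94 of 1824 had the other sign.

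The coding length correction called 2 members instead of 1 in the average and lowered the median change of the catalytic subunits to 0.123 for RfxCas13d, 0.0897 for HiFi-RfxCas13d, 0.112 for DiCas7-11 and 0.118 on average, from 0.19, 0.19, 0.20 and 0.19. With the replicate block added to that correction, the medians were 0.124, 0.0903, 0.111 and 0.118, and 2 members were called on average. The replicate block alone moved the count of members in no comparison by over 1.5 times: it gave 1, 0 and 1 for the effectors, 1 on average, 2, 3 and 4 for NTG against untransfected and 6 for the ASO. The labels do not say that equal numbers mark shared cultures. For RfxCas13d NTG against untransfected, 1 member was called instead of 2 (Paxip1) without the filter, with the length correction and with the 6 samples, which also gave 1 instead of 3 for DiCas7-11.

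Leaving out libraries gave 1 to 2 members for RfxCas13d NTG, 2 to 3 for HiFi-RfxCas13d NTG, 1 to 5 for DiCas7-11 NTG and 5 to 6 for the ASO, and 6 to 7 over all groups. The count for DiCas7-11 NTG was 5 without its replicate 1 and 1 without untransfected replicate 3; that for RfxCas13d NTG was 1 without untransfected replicate 1 or 3 or NTG replicate 1. The mATXN2 counts, 1, 0, 1 and on average 1, did not change without any 1 library, and 0 responses differed between effectors. Standard errors of the members, 3 samples against 3, lay between 0.02 and 0.06 on the log2 scale. Over all genes, calls for RfxCas13d, HiFi-RfxCas13d and DiCas7-11 were 193, 41 and 131, against 434, 201 and 366 without the filter, 665, 275 and 643 with edgeR's adjustment over 10 comparisons, 389, 105 and 1 with 6 samples, 292, 46 and 251 with the replicate block, 272, 65 and 269 by DESeq2 and 153, 19 and 149 with the length correction. Without 1 library they ranged from 43 to 141, 21 to 28 and 16 to 605. Differences between effectors (HiFi-RfxCas13d minus RfxCas13d, DiCas7-11 minus RfxCas13d, HiFi-RfxCas13d minus DiCas7-11) gave 84, 72 and 80 genes without the filter and 0, 7 and 3 by DESeq2, against 0.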

Other observations

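The ASO samples differed from untransfected cells in further genes of H3-K4 methylation, by edgeR's test with adjustment over all genes. The shares of all tested genes called higher and lower were 21% and 21.7%. Of 5 demethylases 1 was called higher, Kdm5a (0.24 on the log2 scale, adjusted p = 1.61e-05), and 3 lower, Kdm5b (-0.45, adjusted p = 2.03e-09), Kdm1b (-0.40, adjusted p = 6.84e-06) and Kdm1a (-0.14, adjusted p = 2.46e-05). Among other enzymes Ash1l, which methylates H3-K36, was called higher (0.43, adjusted p = 9.18e-08), as was Smyd2 (0.14, adjusted p = 0.00524), and Smyd3 was called lower (-0.29, adjusted p = 0.0148). Of 10 readers 4 were called higher and 4 lower. Bptf rose by 0.42 (adjusted p = 3.26e-11), and of the ING family Ing1, Ing2 and Ing4 were called lower (-0.16, -0.18 and -0.20) and Ing5 higher (0.28). Of 6 further subunits 3 were called, all higher: Bod1l at 0.26, Wdr82 at 0.13 and Bod1 at 0.09.

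Chd1, a remodeller that binds methylated H3-K4, was called higher in the 3 NTG comparisons with the shared untransfected samples (0.15, 0.22 and 0.25), and Wdr82, a subunit of the Setd1a and Setd1b complexes, likewise (0.09, 0.09 and 0.13). Of the 10 readers 1, 4 and 3 were called higher there and 0, 2 and 1 lower. Of the 6 further subunits 1, 1 and 2 were called higher and 0 lower. Among all genes 5.6%, 10.3% and 11.1% were called higher and 5.66%, 10.6% and 10.8% lower. Wdr5b, a paralog of Wdr5, had 1.55 ± 0.636 CPM in untransfected cells and 2.97 ± 0.121 CPM with the ASO (SD, n = 3 each), with an edgeR adjusted p of 0.00357.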
